A study of Mus musculus with 10 samples.

Results

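Reg1, Reg3a, Reg3b, Reg3g, Retnla and Retnlb encode secreted antimicrobial and defence proteins of the mouse gut, and their RNA was read here in small intestinal crypts and organoids after loss of R-spondin signalling. The members were all probes whose gene name in the scanner files is one of these 6 symbols. They came to 6 of the 27729 genes and 7 of the 41174 distinct probes of the array, since Retnla has 2 probes and every other member has 1. The study asked what the intestinal epithelium loses when Lgr4 and Lgr5, which receive the Wnt-enhancing ligand R-spondin, are deleted, and how this compares with withholding R-spondin. Crypts, the pits that hold the intestinal stem cells, came from mice with floxed Lgr4 and Lgr5 1 day after deletion by AhCre, a Cre gene under a cytochrome P450 promoter that xenobiotics switch on, and were set against wild type crypts. They made up 2 biological replicates, each with deleted and wild type RNA together on a pair of dye-swapped arrays. Whether the wild type mice received the inducing agent is not given in the labels, so the agent and the deletion cannot be told apart in crypts. Organoids, miniature gut epithelia that grow from crypt cells in a gel with EGF, Noggin and R-spondin, were sampled as 2 cultures from VillinCre Lgr4fl/fl Lgr5fl/fl mice, 1 day after deletion, and 2 cultures from VillinCre wild type mice. VillinCre is a Cre gene driven by the promoter of villin, which is active in intestinal epithelium. The label of the wild type cultures names tamoxifen for 1 day, and that of the deleted cultures names the deletion but no agent. A further culture had been kept for 1 day without R-spondin and was set against 1 culture with it. Organoid RNA was in the Cy5 channel, and the Cy3 channel held a commercial reference RNA from mouse.

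The Reg genes encode C-type lectins that intestinal epithelial cells secrete. Reg3g and Reg3b are the best known of them in the gut: Reg3g binds the peptidoglycan of Gram-positive bacteria and helps to keep bacteria away from the mucosal surface, and Reg3b acts on Gram-negative bacteria. Both are induced by microbes, through the adaptor Myd88 and through the cytokine interleukin-22, its receptor and the transcription factor Stat3. Reg3a and Reg1 encode related lectins of the same family, and Reg1 was first described in regenerating pancreas. Retnlb encodes a resistin-like protein that goblet cells release into the mucus and that is induced by bacterial colonisation and by the type 2 cytokines of worm infection. Retnla encodes a related protein made mainly by macrophages and other cells in type 2 responses.

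The Reg members lie in 1 cluster on chromosome 6, in the order Reg3b, Reg3d, Reg3a, Reg2, Reg1 and Reg3g in the GRCm38 reference table, and the resistin-like genes lie on chromosome 16 in the order Retnlb, Retnla and Retnlg. Per the file headers, the probes are placed on the mm9 build. The Reg3b probe lies at chr6:78323323-78323382, the Reg3a probe at chr6:78333635-78333694, the Reg1 probe at chr6:78378527-78378586 and the Reg3g probe at chr6:78416420-78416479. The Retnlb probe lies at chr16:48818874-48818933, and the Retnla probes lie at chr16:48844437-48844496 and chr16:48844447-48844506. Exon and UTR annotation of that build was not used here. The Reg genes are similar in sequence, but their probes were not: probes of different members shared at most 26 of 60 bases without gaps, and no run of bases longer than 7.

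The promoters of the 4 Reg members that were measured are shown because the results below turn on these neighbouring genes. Each is the 250 bases before the gene's start, 5′ to 3′ on the gene's strand, from RefSeq on GRCm38.p6, at chr6:78370635-78370884 for Reg3b (plus strand), chr6:78468875-78469124 for Reg3g (minus strand), chr6:78380459-78380708 for Reg3a (plus strand) and chr6:78425733-78425982 for Reg1 (plus strand). Capitals mark the letters TATAAAA, the core of a TATA box, and TTCNNNGAA, the spacing of letters that Stat factors bind.
Reg3b: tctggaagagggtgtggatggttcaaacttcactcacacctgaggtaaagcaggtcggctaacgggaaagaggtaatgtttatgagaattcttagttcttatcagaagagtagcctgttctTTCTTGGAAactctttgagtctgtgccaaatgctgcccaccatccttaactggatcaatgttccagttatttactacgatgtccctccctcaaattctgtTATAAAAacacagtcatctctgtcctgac
Reg3g: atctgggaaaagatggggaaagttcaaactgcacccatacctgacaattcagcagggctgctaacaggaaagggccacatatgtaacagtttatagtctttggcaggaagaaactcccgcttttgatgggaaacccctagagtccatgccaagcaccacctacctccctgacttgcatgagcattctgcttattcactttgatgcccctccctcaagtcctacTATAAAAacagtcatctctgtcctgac
Reg3a: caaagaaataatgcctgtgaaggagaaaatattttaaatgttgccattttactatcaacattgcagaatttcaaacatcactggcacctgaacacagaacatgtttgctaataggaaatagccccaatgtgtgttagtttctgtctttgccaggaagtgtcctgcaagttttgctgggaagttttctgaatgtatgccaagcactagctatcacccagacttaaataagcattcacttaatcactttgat
Reg1: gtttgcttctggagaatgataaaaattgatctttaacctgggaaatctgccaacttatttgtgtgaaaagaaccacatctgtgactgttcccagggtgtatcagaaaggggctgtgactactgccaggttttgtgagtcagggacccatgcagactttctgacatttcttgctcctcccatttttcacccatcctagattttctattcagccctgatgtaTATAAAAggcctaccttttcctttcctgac
Reg3b and Reg3g, the outermost genes of the cluster, had the most similar promoters of the 5 available, with 175 of 254 aligned columns identical (68.9%), against 49.1% to 54.0% for the other pairs. Both strands were searched. TATAAAA stood 29 to 23 bases before the start in Reg3b, 27 to 21 before it in Reg3g and 30 to 24 before it in both Reg1 and Retnla, and it was not among these letters of Reg3a. It was held by 4 of 5 members with a promoter and by 4.98% of 32851 promoters of this length. TTCNNNGAA, which reads the same on both strands, was found in Reg3b, as TTCTTGGAA 129 to 121 bases before the start, and in 7.02% of all promoters. A match of letters is a description of the sequence and no evidence that a factor binds there.

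The arrays were of unequal quality, and these facts touch the values below. In Cy5, 40.2% to 63.1% of gene probe spots were above background, 2.48% to 6.94% of spots were marked as outliers by the scanner software, and no spot was saturated. The log2 ratios of the dye-swapped arrays of crypt replicate 1 correlated at 0.351 across 14234 probes, and those of replicate 2 at 0.920. On the 4 organoid deletion arrays the Cy3 reference was unlike that of the others: its negative control spots had medians of 5883 to 6564, against 90 to 117 on the other 6 arrays. Gene probes were dimmer than these controls in Cy3, with medians of 1830 to 1933. In Cy3, 3.66% to 4.26% of gene probe spots were above background there, against 48.9% to 60.8% on the other arrays. Organoid deletion is therefore given from Cy5 first, with the ratio to the reference beside it. The brightest Lgr4 probe gave log2 ratios of -1.51 and -1.61 in the crypt replicates, and its Cy5 signal was 161 and 284 in deleted organoids against 2058 and 3171 in wild type organoids. The brightest Lgr5 probe gave -1.89 and -1.48 in crypts. It was not well above background in deleted organoids, and its signal was 87 without and 7128 with R-spondin. All 7 epithelial markers were above background in every crypt and organoid sample. No file or label says how many mice stood behind a crypt preparation.

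In deleted crypts, Reg3b and Retnlb were the members furthest above wild type, at mean log2 changes of 2.43 and 2.33, and Reg3g was higher mainly in 1 replicate. Reg1 was near 0 and Reg3a had replicate values of opposite sign. None of the 4 members tested passed limma with Benjamini-Hochberg adjustment over 12101 genes, where Retnlb had an adjusted p of 0.0532, and 3 of them had an unadjusted p under 0.05, as did 782 genes that were higher and 893 that were lower. With 2 replicates the fit called few genes: 6 were higher (0.0496%) and 1 was lower. Both Reg3b and Retnlb were over 2-fold higher in both replicates, 2 of the 4 members tested, where 1.07% of all genes tested were. These 4 members were above background in both groups on every crypt array.

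Reg3b had normalised signals of 160745, 225806, 250439 and 205438 in deleted crypts, against 21616, 19548, 94920 and 54963 in wild type crypts on the same arrays, those of replicate 1 first. All deleted signals lay above all wild type signals, and the wild type signals of replicate 2 were the higher ones. The 4 arrays gave log2 ratios of 2.90, 3.53, 1.40 and 1.90, and the replicates 3.21 and 1.65, which are 9.27-fold and 3.14-fold. The mean was 2.43 (SE 0.38, n = 2 replicates, limma adjusted p 0.107), and it ranked 14th from the highest of 12101 genes. Reg3b passed in 9 of 12 other ways of processing, single arrays left out included, with changes of 2.27 to 2.61 and limma adjusted p-values of 0.00119 to 0.451. With the scanner software's own processed signals it was 2.55 at the lowest of these p-values. Keeping marked spots in these signals, or using the authors' log10 ratios, gave the same Reg3b array values and the same change. These passes are thus not separate checks. It passed without array 1 or array 2 of replicate 1 and without array 1 of replicate 2 (limma adjusted p 0.0156, 0.00169 and 0.033), at changes of 2.27 to 2.59, and missed without array 2 of replicate 2 (2.31, 0.138).

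Retnlb, the goblet cell product, was dim but measured. Its normalised signal was 587.1, 598, 2257 and 2405 in deleted crypts, against 208.8, 142, 375 and 404.7 in wild type crypts, again with replicate 1 first. On each array the deleted signal was the higher one, and replicate 2 was brighter in both groups. The first array's spot was marked as an outlier and did not enter the main test. The other arrays gave log2 ratios of 2.07 in replicate 1 and 2.59 and 2.57 in replicate 2. The mean was 2.33 (SE 0.24, n = 2 replicates), 16th from the highest. Retnlb passed in 8 of 11 other ways of processing the crypt arrays, single arrays left out included, with changes of 1.66 to 2.98 and limma adjusted p-values of 8.07e-05 to 0.438. Processed signals and the authors' log10 ratios, both among the 8, gave the same Retnlb array values and the same change of 2.98. With the marked spot kept it missed at 1.66 (limma adjusted p 0.104) when the background was fitted on all spots, and passed at 2.18 (0.0315) when it was fitted on unmarked spots. With marked spots left out, Retnlb passed without array 1 of replicate 2 (limma adjusted p 0.0221) and missed without array 2 of replicate 2 (2.33, 0.05004). It also passed without array 1 of replicate 1 (limma adjusted p 0.00523), which is counted among the 8. That array held the marked spot, so no Retnlb value was removed and the change stayed at 2.33. Without array 2 of replicate 1, Retnlb had no value in that replicate and no test. The value was 2.58 without replicate 1 and 2.07 without replicate 2, which have no test of their own, since the spread there would come from organoid arrays on which Retnlb was below background.

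Reg3g, the lectin that acts on Gram-positive bacteria, had normalised signals of 86792, 106719, 101334 and 111785 in deleted crypts, against 26718, 28360, 99884 and 78263 in wild type crypts. Its deleted signals were alike in the replicates, and its wild type signals were not. In replicate 2, wild type crypts were about as bright as deleted crypts on the first array and dimmer on the second. The array ratios were 1.70, 1.91, 0.02 and 0.51 on the log2 scale. The replicate values of 1.81 and 0.27 gave a mean of 1.04 (SE 0.38, n = 2, limma adjusted p 0.332). In 15 of 15 other ways of processing the change was above 0 and did not pass.

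Reg1 had normalised signals of 86554, 110365, 182200 and 174217 in deleted crypts, against 86600, 68486, 195731 and 145587 in wild type crypts. The groups overlapped, and the mean log2 change was 0.21 (SE 0.22, n = 2, limma adjusted p 0.699). Reg3a had no tested value, because its spots on both arrays of replicate 1 were marked as outliers. With those spots kept, its signals were 15296, 14445, 25721 and 27915 in deleted crypts, against 11714, 13781, 51147 and 54886 in wild type crypts. Deleted crypts were slightly brighter in replicate 1 and dimmer in replicate 2, with replicate log2 changes of 0.23 and -0.98 and a mean of -0.38 (SE 0.32, limma adjusted p 0.611). Both Retnla probes were below background in every crypt channel, so this member had no level in crypts. The plot of the array ratios shows the spread of each member.

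**Figure D1:**
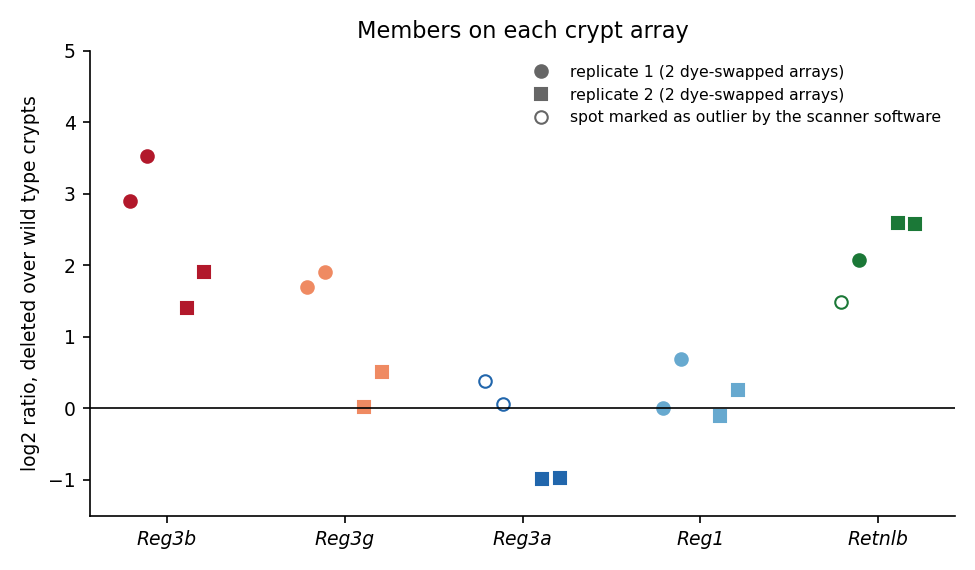
Log2 ratio of deleted over wild type crypts (y axis) for 5 members (x axis) on each of the 4 crypt arrays, with circles for replicate 1, squares for replicate 2 and open symbols for spots marked as outliers. Reg3b (1.40 to 3.53) and Retnlb (1.49 to 2.59) lie above 0 on every array. Reg3g is at 1.70 and 1.91 in replicate 1 and at 0.02 and 0.51 in replicate 2, and Reg3a is near -1 in replicate 2.

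Markers of T cells and other intraepithelial leukocytes, of neutrophils, of enterocytes and of tuft cells were also brighter in deleted crypts. For a list of markers, the signals of members above background were summed, each over the 75th percentile of its channel. The list for T cells and other intraepithelial leukocytes had 12 markers, of which 11 or 12 were above background. They summed to 49.1 to 120 in deleted crypts and to 14.3 to 18.6 in wild type crypts. Of them 11 were tested, all 11 were above 0 and their median log2 change was 1.79, against -0.02 for all genes. The lowest was Cd3e at 0.18. The 6 neutrophil markers summed to 0.936 to 1.72 in deleted crypts and to 0 to 0.382 in wild type crypts, and Retnlg, Ngp, Camp and Mpo among them were not above background on every array of either group. The 12 enterocyte markers, all above background, summed to 1200 to 2710 in deleted crypts and to 518 to 1210 in wild type crypts, with all 10 tested above 0 at a median of 0.61, whereas the 9 Paneth cell markers tested were all below 0 at a median of -1.01. The 11 goblet cell markers, all above background, summed to 859 to 1400 in deleted crypts and to 389 to 888 in wild type crypts, but 5 of the 11 had log2 ratios above 0, with a median of -0.07. Among them Zg16 at 0.86 and Clca1 at 0.83 were highest, and Clca3a1 at -1.20 and Fxyd3 at -0.97 were lowest. Muc2, the main secreted mucin of goblet cells, was at -0.07 and Tff3, a trefoil peptide, at -0.36. Tuft cell markers summed to 3.6 to 5.46 in deleted crypts and to 2.37 to 3.22 in wild type crypts, with 3 to 6 of 7 above background. All 4 tested were above 0, at a median of 0.37. The 2 blood markers tested were higher mainly in replicate 1, with replicate values of 2.13 and 0.19 for Hbb-bt and 1.67 and -0.009 for Hba-a1. The part of these cells in the Reg3b and Retnlb values was not tested. In RNA from whole preparations, fewer cells of a type and less RNA per cell cannot be told apart.

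In organoids, Reg3g was higher in the deleted than in the wild type culture on each slide. Reg1 was somewhat higher, Reg3a did not differ beyond its spread, and Reg3b was slightly lower. Retnlb and Retnla were not well above background in any organoid culture. Both tested members, Reg3a and Reg3g, missed the threshold in limma on the Cy5 signals of 12778 genes, where 4 genes were higher (0.0313%) and 1 was lower. Neither member had an unadjusted p under 0.05, where 419 genes were higher and 574 lower. By ratio to the reference, limma called 0 of 12778 genes higher (0%) and 0 lower, with 263 and 236 at an unadjusted p under 0.05. Reg3g was over 2-fold higher on both slides by Cy5, 1 of 2 members tested, where 0.595% of all genes were. Reg1 and Reg3b had no tested value because 1 and 2 of their spots were marked as outliers. Their values below keep those spots.

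Reg3g had normalised Cy5 signals of 17008 and 96403 in the deleted cultures of slides 1 and 2, against 5904 and 41390 in the wild type cultures of the same slides. The slides differed more than the genotypes did, and the groups overlapped. The mean log2 change was 1.37 (SE 1.09, n = 2 cultures a group, limma adjusted p 0.867), and the differences within slides were 1.53 and 1.22. Each slide held 1 deleted and 1 wild type culture, and with slide as a block Reg3g passed, at 1.37 (SE 0.19, limma adjusted p 0.00393). With that block 232 genes were called higher and 323 lower of 12778, against 4 and 1 without it. By ratio Reg3g was 0.35 (limma adjusted p 0.961), with 0.44 and 0.26 within slides, and it did not pass with the block either (0.686). Without wild type culture 1 the Cy5 change was -0.02, and without wild type culture 2 it was 2.73. Without deleted culture 1 it was 2.64, and without deleted culture 2 it was 0.11.

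Reg3b showed the same slides far apart and no such difference between genotypes. Its Cy5 signals were 8889 and 231728 in deleted cultures 1 and 2, against 12202 and 278236 in wild type cultures 1 and 2. In each slide the deleted culture was a little dimmer, and the mean log2 change was -0.36 (SE 1.93, limma adjusted p 0.997), or with slide as a block -0.36 (SE 0.18, 0.338). Reg1 had signals of 185526 and 163352 in deleted cultures, against 132506 and 87538 in wild type cultures, which did not overlap. The mean log2 change of Reg1 was 0.69 (SE 0.27, limma adjusted p 0.647, and 0.110 with slide as a block) by Cy5 and 0.10 by ratio. Reg3a had signals of 47756 and 31570 in deleted cultures, against 50988 and 28519 in wild type cultures, a change of 0.03 (SE 0.36, limma adjusted p 0.998). Beside these values, 9 of 10 enterocyte markers tested were above 0 by Cy5, with a median of 0.44, and 8 of 8 Paneth cell markers were below 0, with a median of -0.85. By ratio 6 of 10 enterocyte markers were above 0, with a median of 0.06, and the Paneth cell median was -0.59. Their part in the Reg values was not tested.

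**Figure D2:**
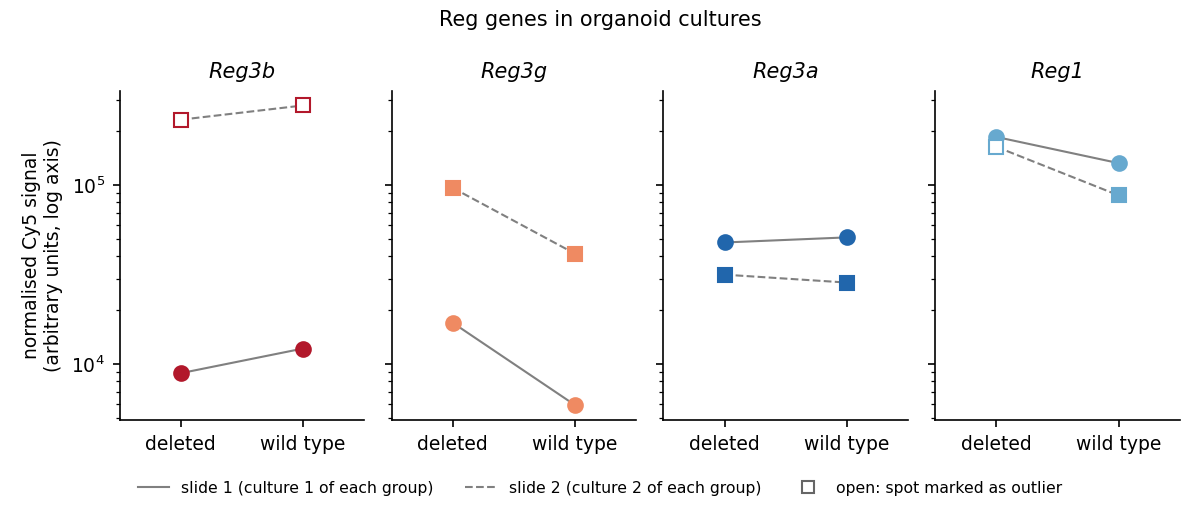
Normalised Cy5 signal in arbitrary units on a log axis (y) of the 4 measured Reg genes in deleted and wild type organoid cultures (x), where lines join the cultures of a slide and open squares are spots marked as outliers. Reg3g is higher in the deleted culture of both slides (17008 against 5904, and 96403 against 41390), and Reg3b differs between slides far more than between genotypes.

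The difference between the cultures of 1 group set Reg3b and Reg3g apart from nearly all other genes. From culture 1 to culture 2, Reg3b was 4.70 higher on the log2 scale among deleted and 4.51 higher among wild type organoids, which ranked 3 and 1 from the highest of 13824 genes. In both groups the Reg3b spot of culture 2 was marked as an outlier, so both differences rest on marked spots that were kept. Reg3g was 2.50 and 3.003 higher, ranking 5 and 4. Reg1 was -0.18 and -0.60, and Reg3a was -0.51 and -0.63, so these neighbours in the cluster did not share the shift. The median absolute difference of all genes was 0.268 among deleted and 0.298 among wild type cultures. In both groups alike, 50 genes were over 2-fold higher and 78 over 2-fold lower in culture 2, and the differences of the groups correlated at 0.526 across genes, which are not independent replicates. Among other inducible epithelial defence genes, 3 of 23 were over 2-fold higher in culture 2 in both groups. Among Paneth cell markers it was 3 of 10, with median differences of 0.82 among deleted and 1.98 among wild type cultures. Markers of T cells and other intraepithelial leukocytes were low in both cultures, with a summed level of 1.33 to 1.67 in deleted and 1.31 to 1.42 in wild type organoids. No neutrophil marker was above background in either culture. The cultures of a group lay on different slides, so culture and slide cannot be told apart.

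**Figure D3:**
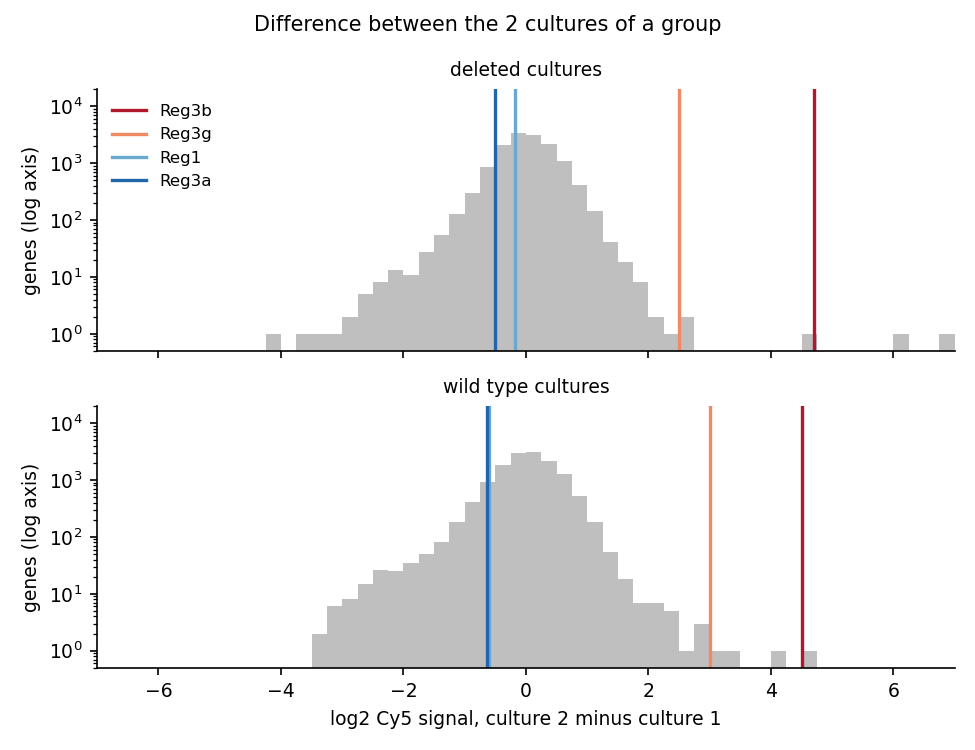
Number of genes (y, log axis) by the log2 difference in Cy5 signal of culture 2 minus culture 1 (x) among deleted cultures (top) and wild type cultures (bottom), with coloured lines for 4 Reg genes. Reg3b (4.70 and 4.51) and Reg3g (2.50 and 3.003) lie at the high end of both distributions, and Reg1 and Reg3a lie within their bulk. The Reg3b spots of culture 2 were marked as outliers in both groups and were kept.

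The change on deletion was compared between crypts and organoids in a fit on the crypt replicate ratios and the within-slide Cy5 differences. For Reg3b, with marked spots kept, it was 3.21 and 1.65 in crypts, against -0.46 and -0.26 in organoids. The crypt change was larger by 2.79 on the log2 scale (SE 0.48), which did not pass at a limma adjusted p of 0.0715. With ratios in organoids in place of Cy5, it was larger by 2.93 (limma adjusted p 0.496). For Reg3g the crypt change minus the organoid change was -0.34 (SE 0.47, limma adjusted p 0.826), and with ratios in organoids it had the opposite sign, at 0.69 (0.688). The crypt values are ratios within an array and the organoid values are differences of Cy5 signals between arrays, so the measures were not the same.

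Without R-spondin, the organoid RNA gave brighter Cy5 signals on all 4 Reg probes than with R-spondin, and Retnlb and Retnla stayed below background. This comparison had 1 culture and 1 array on each side, so it has no test and no replicate check. By Cy5, 4 of 4 measured Reg members were over 2-fold higher without R-spondin, where 926 of 17024 genes (5.44%) were. By ratio to the reference, 2 of the 4, Reg1 and Reg3g, were over 2-fold higher, where 751 of 17024 genes (4.41%) were. Reg3g had a processed Cy5 signal of 19890 without and 3611 with R-spondin (5.51-fold). Reg1 had 69990 without and 13640 with it (5.13-fold). These were the larger of the 4 differences. Reg3a had 65600 without and 16820 with it (3.90-fold), and Reg3b had 22400 without and 6658 with it (3.36-fold). After normalisation between the arrays the log2 differences by Cy5 were 2.14 for Reg3g, 1.88 for Reg1, 1.48 for Reg3a and 1.39 for Reg3b, ranking 56th, 115th, 300th and 368th from the highest.

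The reference channel of the same spots was also brighter on the array without R-spondin. The Cy3 signal of the Reg3a probe was 725.4 on the array without R-spondin and 185.5 on the array with it, a 3.91-fold difference like that in Cy5, although both arrays carried the same commercial reference RNA. The Reg3g probe gave 128.7 and 12.03, the Reg3b probe 81.05 and 14.19 and the Reg1 probe 52.57 and 18.16 in Cy3, in that order of arrays, and the second value of each pair was not well above background. Over 23326 spots above background in Cy3 on both arrays the median Cy3 fold was 1.13, and 0.892% were over 2-fold brighter on the array without R-spondin. Of the 642 among them with a Cy5 signal over 10000 and over 2-fold higher without R-spondin, 22.7% were. By ratio the log2 differences were thus 1.89 for Reg1, 1.20 for Reg3g, 0.89 for Reg3b and 0.49 for Reg3a. From the scanner software's processed signals the ratio differences were 0.83 for Reg1, -0.96 for Reg3g, -0.76 for Reg3b and -0.004 for Reg3a. The ratios of Reg1, Reg3g and Reg3b rest on a Cy3 signal that was not above background with R-spondin, so their sizes and signs are not settled by the ratio. The Reg3a probe was above background in Cy3 on both arrays. Its ratio difference was 0.49 or, from processed signals, -0.004, so a rise of Reg3a is not settled by the ratio either. Goblet cell markers, 11 of 11 above background, summed to 1320 without and 338 with R-spondin, with a median difference of 0.70 by Cy5 and 0.23 by ratio. The 12 enterocyte markers, all above background, summed to 2370 without and 1150 with R-spondin. The 5 of them that entered the comparison had medians of 1.09 by Cy5 and 0.23 by ratio. The 9 Paneth cell markers that entered it had medians of -0.96 by Cy5 and -0.22 by ratio. The part of these cell types was not tested.

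**Figure D4:**
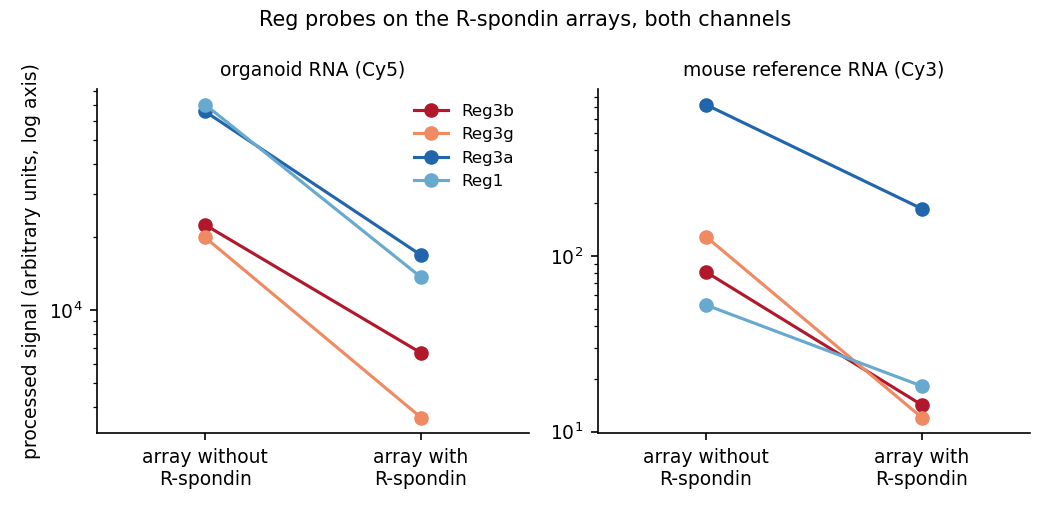
Processed signal in arbitrary units on a log axis (y) of 4 Reg probes on the array without and the array with R-spondin (x), for organoid RNA in Cy5 (left) and the mouse reference RNA in Cy3 (right). Every Reg probe is brighter on the array without R-spondin in both channels, for Reg3a by 3.90-fold in Cy5 and 3.91-fold in Cy3.

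Across all conditions the levels of each member were set on 1 scale, as the log2 signal over the 75th percentile of its channel, with marked spots kept. The crypt, organoid deletion and R-spondin arrays were separate sets, so levels across them are a description only, and no probe's level is set against another's. Reg3b averaged 8.43 in deleted crypts (SD 0.65, n = 4 channels from 2 replicates), 6.52 in deleted organoids (4.27 and 8.77), 6.83 in wild type organoids (4.61 and 9.05) and 5.59 in wild type crypts (SD 0.46). It was 4.10 without and 2.51 with R-spondin. Deleted and wild type crypts did not overlap, whereas the organoid cultures spanned nearly the whole range.

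Reg3g averaged 7.39 in deleted crypts (6.59 to 8.11), 6.40 in deleted organoids (5.17 and 7.62), 5.95 in wild type crypts (5.68 to 6.28) and 4.99 in wild type organoids (3.56 and 6.43). It was 3.92 without and 1.62 with R-spondin. Deleted and wild type crypts did not overlap on this scale, by a narrow gap, whereas their loess-normalised signals above did, and each other neighbour in that order of crypts and deletion organoids overlapped the next. Reg1 averaged 8.48 in deleted organoids (8.32 and 8.64), 7.79 in deleted crypts (7.44 to 8.19), 7.73 in wild type organoids (7.44 and 8.01) and 7.14 in wild type crypts (6.53 to 7.66), and was 5.73 without and 3.53 with R-spondin. The middle levels overlapped.

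Reg3a had the smallest range of the Reg members. It averaged 6.35 in deleted organoids, 6.24 in wild type organoids, 5.01 in deleted crypts and 5.06 in wild type crypts, and was 5.79 without and 3.95 with R-spondin, so both organoid deletion groups lay above both crypt groups. The culture with R-spondin held the lowest level of all 4 Reg members. Retnlb averaged 0.78 in deleted crypts (0.48 to 1.097) and -1.44 in wild type crypts (-1.68 to -0.90), with no overlap, and was above background nowhere else. Retnla was above background in no sample by either probe.

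**Figure D5:**
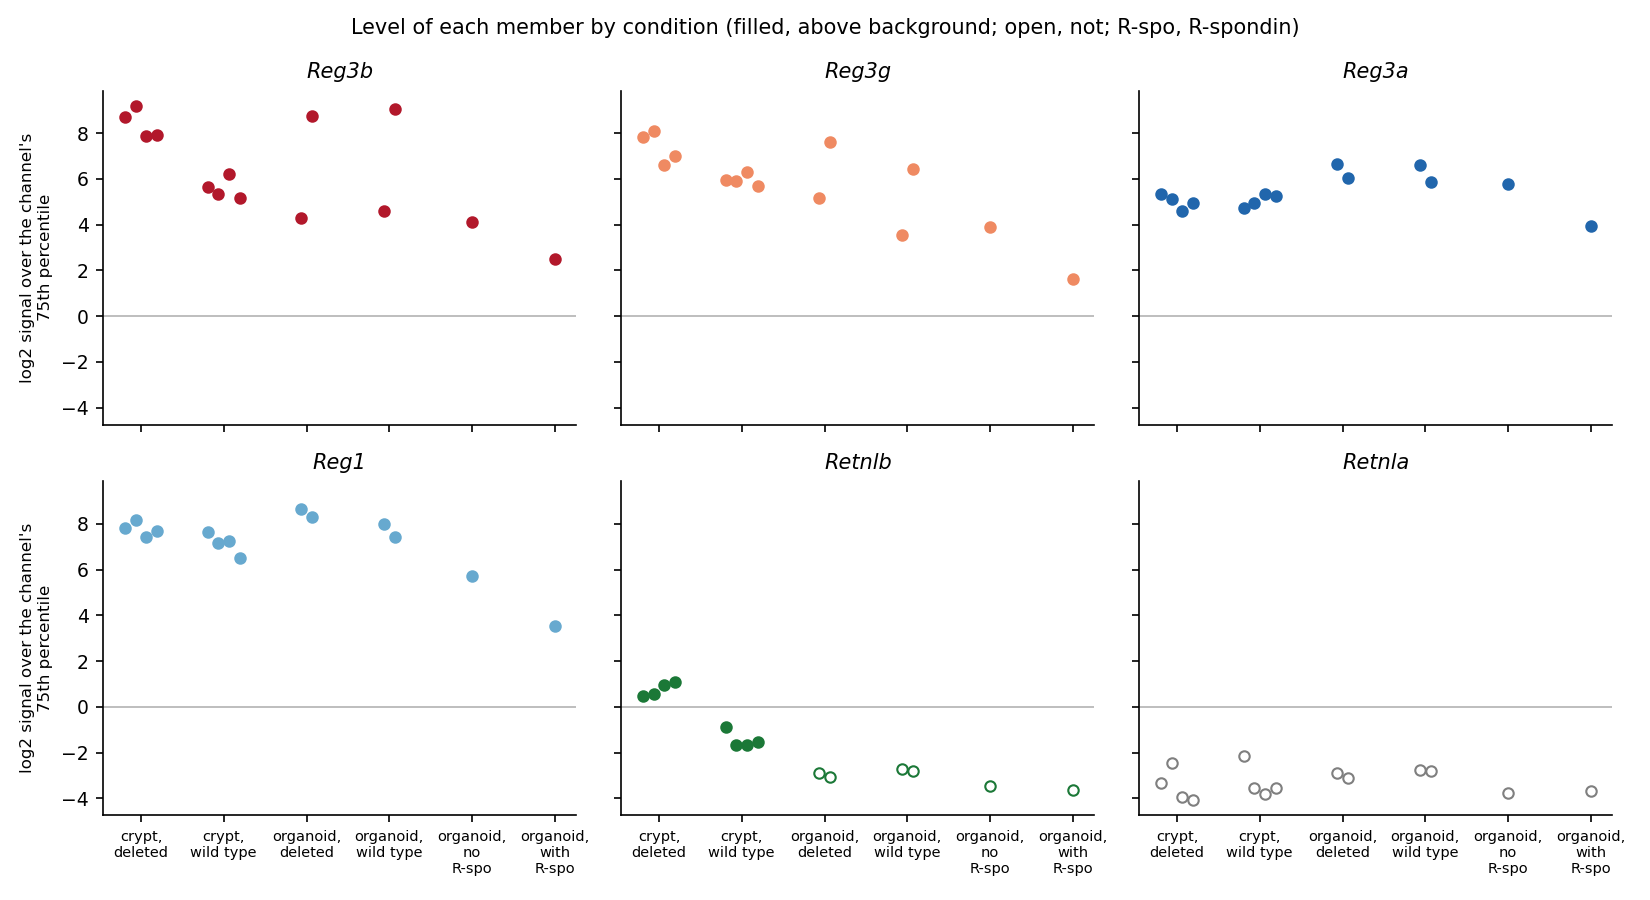
Log2 signal over the channel's 75th percentile (y) for each member in deleted and wild type crypts, deleted and wild type organoids, and organoids without and with R-spondin (x), 1 point per channel, filled where above background. Retnlb is above background in crypts alone, Retnla nowhere, and the organoid points of Reg3b lie at 4.27 and 8.77 (deleted) and at 4.61 and 9.05 (wild type).

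The other genes of these families and pathways were read from 4 lists, and none of their members passed limma in deleted crypts or deleted organoids. Of the other Reg and resistin genes, Reg4, a lectin of secretory cells, was the only 1 of 5 tested in crypts, at a log2 change of -0.68. In organoids Reg4 was at -0.83 by Cy5 and at 0.41 by ratio. Reg2 and Reg3d, the neighbours of Reg1 and Reg3b in the cluster, were at 0.25 and 0.11 in organoids. Without R-spondin the Cy5 differences were 1.38 for Reg3d, 0.48 for Reg2 and -0.54 for Reg4. By Cy5, Reg3d was thus over 2-fold higher there with the 4 members, where 5.44% of all genes were, and Reg4 was not. By ratio no gene of this list was over 2-fold higher, with Reg3d at 0.86, Reg2 at 0.69 and Reg4 at 0.05.

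Other inducible epithelial defence genes had 20 of 35 tested in crypts, 11 above 0, with a median of 0.07. The highest was S100a9, a calcium-binding neutrophil and epithelial protein, at 1.64 and above background on 3 of 4 wild type arrays, followed by the cytokine Il18 at 1.03. The lowest were the Paneth cell ribonuclease Ang4 at -1.45 and the interferon-induced Ifitm3 at -1.03. S100a8 was not well above background on any wild type crypt array. Socs3, named after its value had been seen and a feedback inhibitor that Stat3 induces, was at 0.93 (replicates 0.75 and 1.105, limma adjusted p 0.221). In organoids 21 of 35 were tested, with a median of -0.05, and the highest were Il18 at 0.88 and Dmbt1 at 0.75. Pla2g2a, a Paneth cell phospholipase, was not well above background in deleted organoids. The lowest among genes measured in both groups were the lectin Itln1 at -0.77 and the oxidase Duox2 at -0.55. Without R-spondin, Il18 was at 1.93 by Cy5 and the mucosal defence gene Lypd8 at 1.44, while Ang4 was at -1.73 and the transglutaminase Tgm2 at -1.04. By ratio Il18 was at 1.88, Lypd8 at 0.82, Ang4 at -0.88 and Tgm2 at -0.93. Of these genes Il18 alone thus differed over 2-fold by both measures.

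The receptors, sensors and relays that lead to these genes had 26 of 34 tested in crypts, with 19 above 0 and a median of 0.13. The highest were Il6st, the shared receptor chain of the interleukin-6 family, at 0.82 and the transcription factor Klf4 at 0.81, and the lowest were the bacterial sensors Tlr1 at -0.63 and Tlr2 at -0.50. Il22ra1, the epithelial receptor chain for interleukin-22, was at 0.11, Stat3 at 0.21, Myd88 at 0.37 and Stat6 at 0.30. These 4 were named for their role and after their values had been seen. In organoids the median was 0.05 over 28 genes, from -0.55 for Nod1 to 0.88 for the adaptor Ticam1. Of the 23 cytokine and type 2 response genes on the array, 6 were tested in crypts, with a median of 0.54: the mast cell protease Mcpt1 at 0.89 and the goblet cell gene Clca1 at 0.83 were highest, and Clca3a1 at -1.20 and Arg1 at -0.12 were lowest. Il22, Il17a, Il4, Il5 and Il13 were not tested in crypts, because none was above background on every array of a group. Without R-spondin, Clca1 was at 2.61 by Cy5 and at 1.49 by ratio.

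The genes most like each Reg member were sought over 5 log2 differences, the crypt replicates, the organoid slides by Cy5 and R-spondin withdrawal by Cy5, among 15657 probes. Likeness was the root mean square difference, so that 0 would be the same pattern. Nearest to Reg3g was Il18 at 0.352, followed by the bile acid transporter subunit Slc51a at 0.391 and Mertk at 0.440. Il18 gave 1.46 and 0.58 in the crypt replicates, 0.97 and 0.70 on the organoid slides and 1.92 without R-spondin. Reg3b had no close match: its nearest were Acta1 at 0.590, Slc5a4b at 0.677 and the glutathione transferase Gsta2 at 0.695. Reg3a was nearest to Cyp3a25 at 0.154, C1galt1c1 at 0.166 and Mgst2 at 0.174, and Reg1 to Slc41a2 at 0.159, Tm4sf5 at 0.163 and Gpr155 at 0.180. Among the members themselves, Reg1 and Reg3a were the most alike pair at 0.719, Reg3b and Reg3g lay at 1.40 in spite of their similar promoters, and Reg3a and Reg3b were the least alike at 1.79.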

How the data were processed

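RNA was measured on 10 Agilent 2-colour arrays. The deposited scanner files hold raw and processed signals as intensity, the processed ones corrected for background and dye by the scanner software, per the file headers. The authors' log10 ratios are in the deposited series matrix. The scanner software, Agilent Feature Extraction, had version 10.5.1.1 per the file headers and 8.5.1.1 per the submitters' processing notes.

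Raw intensities were corrected in limma 3.58.1 (R 4.3.3, data.table package 1.17.8) by normexp with an offset of 50, without spots marked as outliers. Crypt ratios and organoid ratios were normalised by loess within arrays, and Cy5 signals by quantiles between arrays, on the log2 scale. Mean pixel signals were used, except on the organoid deletion arrays, whose files hold median ones. The brightest probe stood for a gene. Probes that the software called well above background throughout 1 or more groups were tested with lmFit and eBayes, two-sided, with Benjamini-Hochberg adjustment over all genes and a threshold of 0.05. Where a member's spots were marked, values kept them, with the background fitted to unmarked spots, a choice made after the data were seen. With so few arrays the precision is limited by their number.

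All members are named in the text. From the other lists, genes past the test or the 2 most changed each way among those measured on both sides are named. Members and lists were chosen with earlier results of these data known. The labels call crypts and organoids biological replicates, without naming mice. Organoid replicate numbers go with the slides: the slide was the block, and across genes the deleted and wild type culture differences correlated at 0.526. The fits were tested on simulated data. Alternatives were other background corrections, scalings, filters, probe summaries, treatment of marked spots, the slide block and leaving out arrays. Figures used Python 3.11.15 and matplotlib 3.10.9.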

Additional observations from a re-analysis of the deposited data

Results flagged for a closer look

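On deletion, both crypt replicates of Reg3b were above 0 (3.21 and 1.65) and both within-slide organoid differences were slightly below 0 (-0.46 and -0.26). The organoid change itself did not pass (-0.36, SE 1.93, limma adjusted p 0.997, or 0.338 with slide as a block). Crypt values were ratios within an array and organoid values were Cy5 differences between arrays. The crypt change minus the organoid change was 2.79 on the log2 scale, and the test of that difference in limma did not pass (SE 0.48, adjusted p 0.0715). The Reg3b spots of slide 2 were marked as outliers and were kept for this value.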

How the results depend on the processing

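The counts of genes called depended on the processing, and the cause was not tested. Deleted crypts gave 7 genes, against 504 with processed signals, 438 with these and marked spots kept, 493 from the authors' log10 ratios, 99 with the mean of all probes, 91 with the spread shared with organoids, 47 with marked spots kept, 59 with these and the background fitted without them, 59 without background correction and 0 without a filter on dim probes. Without 1 replicate it was 0 to 173, and without 1 array 7 to 311. Deleted organoids by Cy5 gave 5 genes, against 92 with processed signals, 24 with 75th percentile scaling, 1 with marked spots kept, 0 without a filter and 4 to 19 without 1 culture. With the slide as a replicate block it was 555, and 859 with 75th percentile scaling too, where Reg3g passed at 1.41 (limma adjusted p 0.000373). The block changed no other member's call. By ratio the count was 0, against 13 with processed signals, 25 from the authors' ratios, 0 with the block and 0 to 116 without 1 culture. The crypt against organoid difference gave 53 genes, and 0 with ratios. R-spondin withdrawal gave 1863 genes over 2-fold by ratio, against 2817 with processed signals and 3303 with processed Cy5 alone.

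In crypts, Reg3b, Retnlb, Reg3g and Reg1 were above 0 in all 12, 14, 15 and 12 alternatives that gave them a value. Processed signals and the authors' log10 ratios gave the same array values for these members, so those alternatives were not separate checks. Reg3b and Reg1 have no test without 1 replicate, since that fit also held the organoid arrays, where their spots were marked; the other replicate's value was 1.65 or 3.21 for Reg3b. The p-values of Retnlb in fits with organoid arrays are not given, since it was below background there. In organoids by Cy5, Reg3a was -0.0932 and -0.0935 with marked spots kept, without and with the background fitted on unmarked spots, and -0.3764 to 0.4436 without 1 culture, with -0.2708 without deleted culture 1. Reg3g was -0.02151 to 2.734 without 1 culture. By ratio Reg3a was -0.1199 to 0.1791 without 1 culture, with -0.06316 without wild type culture 2. Reg3g was -0.9568 without R-spondin by processed ratio, where its Cy3 signal with R-spondin was not above background, and its crypt against organoid difference was 0.6861 with ratios. Retnla, and Retnlb outside crypts, were limited by signal over background. Several alternatives were chosen after the data were seen: those with the background fitted on unmarked spots, processed Cy5 alone, processed signals with marked spots kept, and 75th percentile scaling with the block.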
